A study of Mus musculus with 8 samples.

Results

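Followed here were 30 genes that make cholesterol, sense it, or move and store it in the cell. They were chosen by name, in pathway order, with earlier results of these data known, so no test was run over the list. They comprise 4 genes of sterol sensing and 8 of the mevalonate and isoprenoid steps. The rest are 12 of the steps from squalene to cholesterol, and 6 of uptake, transport and storage. All 30 were found among the 45706 gene rows of the count table, and all 30 were among the 14645 genes with enough counts to be tested. Liver RNA came from C57BL/6 mice, 4 labelled HuR WT and 4 labelled HuR KO, with 1 library per mouse and no treatment named. The protein HuR, which binds AU-rich stretches of mRNA, is the product of Elavl1. The sources used here do not give the cells or the allele in which it was deleted, nor the age, feeding state or hour of collection.

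Liver cells build cholesterol from acetyl-CoA through mevalonate, farnesyl diphosphate, squalene and lanosterol. When membranes of the endoplasmic reticulum are poor in sterol, the escort protein SCAP carries the transcription factor SREBP-2, the product of Srebf2, to the Golgi, where it is cut and freed to switch on most genes of the pathway. When sterol is plentiful, INSIG proteins hold SCAP back. Insig1 is itself switched on by SREBP, whereas much of the liver's Insig2 comes from a transcript that insulin represses and fasting raises.

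Total counts ranged from 18649618 to 31249286 per library. Elavl1 was at 32.7 to 46.6 CPM (counts of a gene scaled to a common library total, by TMM) in WT and at 45.6 to 56.0 CPM in KO, so it was no lower where the label says KO (log2 fold change 0.25, SE 0.11, edgeR adjusted p = 0.258). The part of the gene that was deleted is not stated, so directions are given between libraries by their labels. The titles carry animal numbers of 2 kinds, 98 to 100 (WT replicate 3, KO replicates 3 and 4) and numbers of 4 digits (the other 5 libraries), and what the numbers mark is not stated. WT replicate 3, the 1 WT animal numbered 98 to 100, stood apart: without it the genes called over the whole table went from 201 to 534 lower in KO and from 340 to 710 higher. Fold changes that moved by over 1.5 times, or turned sign, when it was left out are given both ways. The animals 98 to 100 left without it are all KO, so that comparison cannot fully separate genotype from the kind of number. The liver was recognisable by its hepatocyte markers, whose 13 tested genes summed to 134714 to 150624 CPM in WT and 121029 to 143923 CPM in KO, with 0 called by edgeR (1 lower and 0 higher at an unadjusted p under 0.05). Of 14 bile duct cell markers, 11 were called higher in KO and 0 lower (median log2 fold change 1.90). None of the 14 was at 0 in all libraries. Their summed level was 157 to 208 CPM in WT and 306 to 426 CPM in KO, without overlap, and Spp1, Epcam, Cd24a and Tspan8 were among those that rose. Markers of endothelial and stellate cells summed to 704 to 778 CPM in WT and 785 to 895 CPM in KO, without overlap, with 0 of 12 called by edgeR but 6 higher and 0 lower at an unadjusted p under 0.05. Among all genes tested, edgeR called 1.37% lower and 2.32% higher, and 8.84% and 9.2% were so at an unadjusted p under 0.05. The macrophage and lymphocyte sums overlapped. The part of these shifts in the results that follow was not tested, and in whole liver fewer cells of a type and less RNA per cell cannot be told apart.

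Start regions of the genes that the results turn on are shown first, because SREBP works from short promoter elements beside the factor NF-Y. Each run holds 250 bases before and 50 bases after a RefSeq transcript start (RefSeq, GRCm38.p6), and 24 of the 30 genes had at least 1 entry, in 30 windows. Fdps, Fdft1, Sqle, Stard4, Soat2 and Npc1 had none. The genes shown are the 6 called lower in KO and the pair Insig1 and Insig2. For genes with several starts the window with the most matches is given. The starts used for Dhcr7 and Tm7sf2 lie well within the span annotated to the gene. For Hmgcs1, Lss and Nsdhl the bases just after the start were not found near the front of a GENCODE transcript of the gene, so positions there hold for the RefSeq start only. Capitals mark matches on either strand to TCACNCCAC (a sterol regulatory element), CCAAT (the NF-Y box, ATTGG on the other strand) and CACGTG (an E-box). No match overlaps another.
Hmgcs1, chr13:119690101-119690400, plus strand: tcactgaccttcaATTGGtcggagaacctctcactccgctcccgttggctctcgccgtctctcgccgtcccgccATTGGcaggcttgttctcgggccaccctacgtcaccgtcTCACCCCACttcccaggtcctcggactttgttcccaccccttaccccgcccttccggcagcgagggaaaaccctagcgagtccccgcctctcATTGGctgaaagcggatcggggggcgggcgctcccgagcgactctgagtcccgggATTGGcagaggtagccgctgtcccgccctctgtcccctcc
Lss, chr10:76531355-76531654, plus strand: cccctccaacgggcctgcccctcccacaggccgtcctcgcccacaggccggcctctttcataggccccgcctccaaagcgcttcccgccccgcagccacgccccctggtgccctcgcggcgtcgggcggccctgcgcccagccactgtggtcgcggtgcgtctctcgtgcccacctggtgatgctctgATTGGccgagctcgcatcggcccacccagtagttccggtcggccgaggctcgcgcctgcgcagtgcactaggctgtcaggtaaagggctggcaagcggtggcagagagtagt
Tm7sf2, chr19:6067801-6068100, minus strand: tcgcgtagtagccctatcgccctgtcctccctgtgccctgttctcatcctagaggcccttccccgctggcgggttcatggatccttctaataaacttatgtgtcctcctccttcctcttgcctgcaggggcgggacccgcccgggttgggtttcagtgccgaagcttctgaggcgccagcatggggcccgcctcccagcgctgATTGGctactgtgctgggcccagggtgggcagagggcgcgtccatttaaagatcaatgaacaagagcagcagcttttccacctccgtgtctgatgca
Nsdhl, chrX:72918271-72918570, plus strand: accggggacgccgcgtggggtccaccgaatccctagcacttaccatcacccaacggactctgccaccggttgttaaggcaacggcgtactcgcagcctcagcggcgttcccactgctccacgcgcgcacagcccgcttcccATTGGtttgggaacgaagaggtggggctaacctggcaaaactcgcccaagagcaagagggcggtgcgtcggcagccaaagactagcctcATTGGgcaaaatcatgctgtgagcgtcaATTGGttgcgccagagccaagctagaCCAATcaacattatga
Hsd17b7, chr1:169969156-169969455, minus strand: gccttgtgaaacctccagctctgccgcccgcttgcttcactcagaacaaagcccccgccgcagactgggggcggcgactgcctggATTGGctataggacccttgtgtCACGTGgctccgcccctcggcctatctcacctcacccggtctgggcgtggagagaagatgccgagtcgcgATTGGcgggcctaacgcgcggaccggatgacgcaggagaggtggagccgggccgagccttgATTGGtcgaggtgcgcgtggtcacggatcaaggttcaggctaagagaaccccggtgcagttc
Dhcr7, chr7:143829964-143830263, plus strand: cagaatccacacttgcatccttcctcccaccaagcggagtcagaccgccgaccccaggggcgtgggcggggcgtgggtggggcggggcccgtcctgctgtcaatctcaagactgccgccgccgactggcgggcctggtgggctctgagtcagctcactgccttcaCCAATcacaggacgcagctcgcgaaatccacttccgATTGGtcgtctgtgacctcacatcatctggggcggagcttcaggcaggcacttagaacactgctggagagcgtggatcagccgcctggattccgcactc
Insig1, chr5:28071162-28071461, plus strand: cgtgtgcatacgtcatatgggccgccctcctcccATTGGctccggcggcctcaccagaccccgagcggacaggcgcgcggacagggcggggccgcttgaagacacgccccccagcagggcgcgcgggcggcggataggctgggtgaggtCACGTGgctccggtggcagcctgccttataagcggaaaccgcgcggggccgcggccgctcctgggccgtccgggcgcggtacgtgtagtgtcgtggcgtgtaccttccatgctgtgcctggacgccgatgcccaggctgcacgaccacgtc
Insig2, chr1:121332540-121332839, minus strand: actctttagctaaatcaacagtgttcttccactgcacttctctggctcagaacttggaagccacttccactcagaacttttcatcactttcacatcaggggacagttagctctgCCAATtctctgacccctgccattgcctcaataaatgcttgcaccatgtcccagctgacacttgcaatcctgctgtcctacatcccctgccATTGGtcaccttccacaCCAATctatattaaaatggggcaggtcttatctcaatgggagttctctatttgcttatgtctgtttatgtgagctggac

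Hmgcs1 was the 1 gene of the 24 with a match to TCACNCCAC, which starts 137 bases before the transcript start. Over all 32851 windows of this length in the table, 1.24% held that sequence. A CCAAT box stood in 22 of the 30 windows (73.3%), against 37.4% of all windows. Hmgcs1 and Nsdhl had 4 such boxes each, Hsd17b7 had 3, and Lss and Tm7sf2 had 1 each. The Dhcr7 window shown had 2, and its other windows had no CCAAT box. Genes that were not called had as many or more, with 5 in Mvk and 3 each in Ggps1, Msmo1 and Mylip. The Insig2 window with 3 boxes belongs to the start farthest upstream of its 3 starts, and the other two windows held no match. CACGTG stood in 6 of the 30 windows (20.0%), among them those of Insig1 and Hsd17b7, against 7.15% of all windows. The windows of Scap overlap and hold the same match. By gene it was 5 of 24 (20.8%), against 8.09% of all genes with a window. These are matches of letters and do not show binding.

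Of the 30 genes, 6 were lower in the libraries labelled KO and 0 were higher, at an adjusted p under 0.05 (edgeR quasi-likelihood test, Benjamini-Hochberg adjustment over 14645 genes). Among all genes tested, 1.37% were called lower and 2.32% higher. The 6 that fell are Hmgcs1 of the mevalonate steps and Lss, Tm7sf2, Nsdhl, Hsd17b7 and Dhcr7 of the sterol steps, by 1.44-fold to 2.38-fold. At an unadjusted p under 0.05 there were 10 lower and 2 higher, beside 8.84% and 9.2% of all genes tested. DESeq2 called 9 lower and 0 higher (3.38% and 4.19% of all genes), and limma-voom called 6 and 0 (1.24% and 2.21%). No gene of sensing or of uptake, transport and storage was called by edgeR, with 0 lower and 1 higher, and 1 and 1, at an unadjusted p under 0.05. DESeq2 called 1 of these, Npc2. Of all 30 members, 27 had a log2 fold change below 0, with a median of −0.42, beside −0.0046 over all genes tested. By role the medians were −0.40 for sensing, −0.55 for the mevalonate and isoprenoid steps, −0.65 for the sterol steps and −0.11 for uptake, transport and storage. With the kind of animal number as a covariate the median of the 30 was −0.43. In that fit 8 were called lower and 0 higher, where 2.1% of all genes were lower and 2.84% higher. Without WT replicate 3, where genotype and kind of number are mixed, the median of the 30 was −0.30. In that case 8 were called lower and 1 higher, where 3.57% of all genes were lower and 4.75% higher. The log2 fold change was then below 0 for 23 of the 30, and for 16 genes, none of them called, it moved by over 1.5 times or turned sign: 8 were nearer 0, 4 farther from 0 and 4 above 0 in place of below. Without WT replicate 2 or KO replicate 3 there were 3 lower, namely Tm7sf2, Nsdhl and Hsd17b7, where 0.476% and 0.49% of all genes were. These 3 genes were called under each of the 16 alternatives run.

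**Figure D1:**
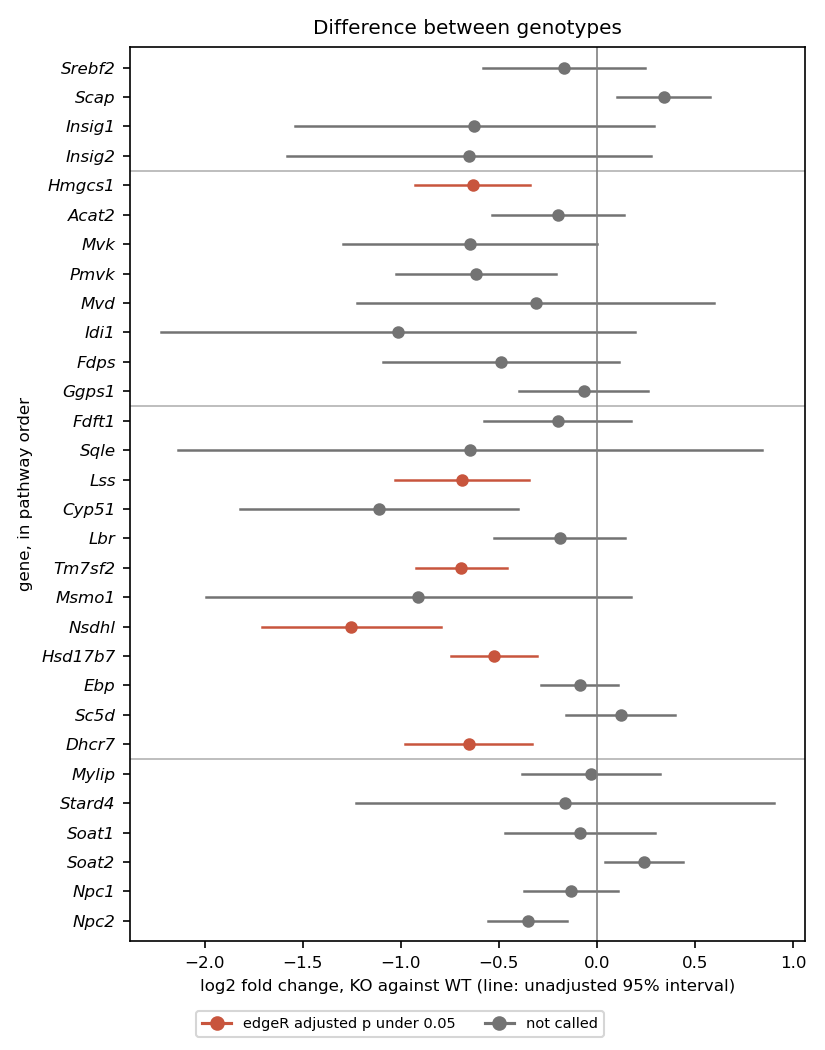
Log2 fold change of each of the 30 genes, KO against WT over 4 libraries each (x axis), with genes in pathway order (y axis), grey rules between the roles, points for the fold change and lines for its unadjusted 95% interval. The 6 genes called lower are coloured, 5 of them among the 12 genes of the sterol steps, and the wide intervals of Sqle, Idi1 and Msmo1 all cross 0.

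Hmgcs1, the cytosolic synthase that joins acetyl-CoA to acetoacetyl-CoA, makes the HMG-CoA that is reduced to mevalonate (ENSMUSG00000093930, mm10 chr13:119690462-119708086, plus strand, protein-coding). In replicate order 1 to 4, the WT libraries held 62.8, 91.2, 97.8 and 80.6 CPM of it, and the KO libraries 49.8, 55.3, 45.7 and 63.4 CPM, an order kept for all genes below. The KO libraries 1 to 3 lay below all WT libraries, and KO replicate 4 lay just above WT replicate 1. The gene fell 1.55-fold (log2 fold change −0.63, SE 0.14, edgeR adjusted p = 0.0225), and lost its call when WT replicate 2 or 4 or KO replicate 1 or 3 was left out, and among the animals with numbers of 4 digits. The adjusted p was then at most 0.0822.

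The other mevalonate and isoprenoid genes were not called. Pmvk, the kinase that adds a phosphate to phosphomevalonate, was at 15.6, 18.0, 10.4 and 16.5 CPM in WT and 13.4, 8.18, 8.93 and 8.87 CPM in KO (log2 fold change −0.62, SE 0.19, edgeR adjusted p = 0.0911). KO replicate 1 was the high library of its group and WT replicate 3 the low one of its own, so the groups overlapped. With either of these libraries left out Pmvk was called lower. Mvk, the mevalonate kinase, ranged from 3.29 to 10.1 CPM in WT and from 3.47 to 5.21 CPM in KO, with WT replicate 3 highest (log2 fold change −0.65, SE 0.30, edgeR adjusted p = 0.276). Without that library the log2 fold change of Mvk was −0.33. Acat2, the cytosolic thiolase that pairs acetyl-CoA units and has a closely similar neighbour in Acat3, was at 14.8 to 19.9 CPM in WT and 11.5 to 17.6 CPM in KO, with a log2 fold change of −0.20 (SE 0.16), or −0.10 without WT replicate 3. Ggps1, which makes the geranylgeranyl chain, was at 8.03 to 11.3 CPM in WT and 7.32 to 9.78 CPM in KO, with −0.07 (SE 0.15), or −0.13 without WT replicate 3. A few genes gave few reads. Idi1, the isomerase of isopentenyl diphosphate, was counted 1 to 55 times per library, Mvd, the diphosphomevalonate decarboxylase, 23 to 134 times, and Fdps, the farnesyl diphosphate synthase, 27 to 105 times. Their log2 fold changes of −1.01, −0.31 and −0.49 carry SEs of 0.57, 0.42 and 0.28, and without WT replicate 3 were −0.67, 0.078 and −0.28. Of the exon length of Fdps 26.7% is also annotated to Gm43738 on the same strand, and reads that touch both genes were not counted.

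The sterol steps held 5 of the 6 called genes. Nsdhl, the sterol dehydrogenase that acts in removal of methyl groups from the ring (ENSMUSG00000031349, mm10 chrX:72918557-72958514, plus strand, protein-coding), was at 17.1, 18.1, 17.0 and 11.4 CPM in WT and 4.37, 5.69, 8.27 and 8.42 CPM in KO. All KO libraries lay below all WT libraries, with WT replicate 4 the low one of its group. It fell 2.38-fold (log2 fold change −1.25, SE 0.21, edgeR adjusted p = 0.00596).

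Hsd17b7, the ketoreductase that works beside NSDHL in the same demethylation (ENSMUSG00000026675, mm10 chr1:169949535-169969241, minus strand, protein-coding), was at 87.1, 95.6, 72.6 and 76.3 CPM in WT and 52.4, 56.9, 57.3 and 63.6 CPM in KO. The groups did not overlap. It fell 1.44-fold (log2 fold change −0.53, SE 0.10, edgeR adjusted p = 0.0117). Msmo1, the oxidase that starts that demethylation, had 17.4, 16.2, 50.6 and 33.0 CPM in WT and 9.02, 13.5, 19.9 and 20.0 CPM in KO. WT replicate 3 was far above the others, the groups overlapped, and the log2 fold change of −0.91 was not called (SE 0.46, edgeR adjusted p = 0.359). Without that library it was −0.50.

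Tm7sf2 and Lbr both encode reductases of the same sterol double bond, and Lbr is also a receptor for lamin B in the nuclear envelope. Tm7sf2 (ENSMUSG00000024799, mm10 chr19:6062821-6068373, minus strand, protein-coding) was at 79.1, 80.1, 75.4 and 73.4 CPM in WT and 39.8, 43.8, 57.6 and 49.4 CPM in KO. Its 4 WT libraries lay close together and above all KO libraries. It fell 1.62-fold (log2 fold change −0.69, SE 0.11, edgeR adjusted p = 0.00311). Of its exon length, 15.3% is shared with Vps51 on the same strand and was not counted. Lbr was at 9.85 to 16.2 CPM in WT and 10.9 to 12.9 CPM in KO, and its log2 fold change of −0.19 was not called (95% interval −0.52 to 0.14). Without WT replicate 3 it was −0.32. Per kilobase of exon, the level of Tm7sf2 was 6.78 to 10.5 times that of Lbr in the WT libraries and 4.23 to 6.22 times in the KO libraries. These ranges did not overlap, and the difference between the enzymes was not tested.

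Lss, which closes squalene epoxide into lanosterol (ENSMUSG00000033105, mm10 chr10:76531588-76557138, plus strand, protein-coding), was at 20.5, 22.8, 26.1 and 18.9 CPM in WT and 11.5, 11.2, 13.8 and 18.3 CPM in KO. The groups did not overlap, though KO replicate 4 came close to WT replicate 4. It fell 1.61-fold (log2 fold change −0.69, SE 0.16, edgeR adjusted p = 0.0280). Dhcr7, the reductase of the last step to cholesterol (ENSMUSG00000058454, mm10 chr7:143823145-143848410, plus strand, protein-coding), was at 36.4, 28.2, 22.1 and 31.6 CPM in WT and 22.9, 18.5, 17.5 and 16.2 CPM in KO. KO replicate 1 lay just above WT replicate 3. It fell 1.57-fold (log2 fold change −0.65, SE 0.15, edgeR adjusted p = 0.0279). Neither call held in every fit with a library left out. The log2 fold changes in those fits were −0.86 to −0.60 for Lss and −0.77 to −0.54 for Dhcr7. Lss lost its call when WT replicate 2 or KO replicate 1, 2 or 3 was left out (adjusted p up to 0.0911). Dhcr7 lost its call when WT replicate 1, 2 or 4 or KO replicate 2, 3 or 4 was left out (adjusted p up to 0.0980).

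**Figure D2:**
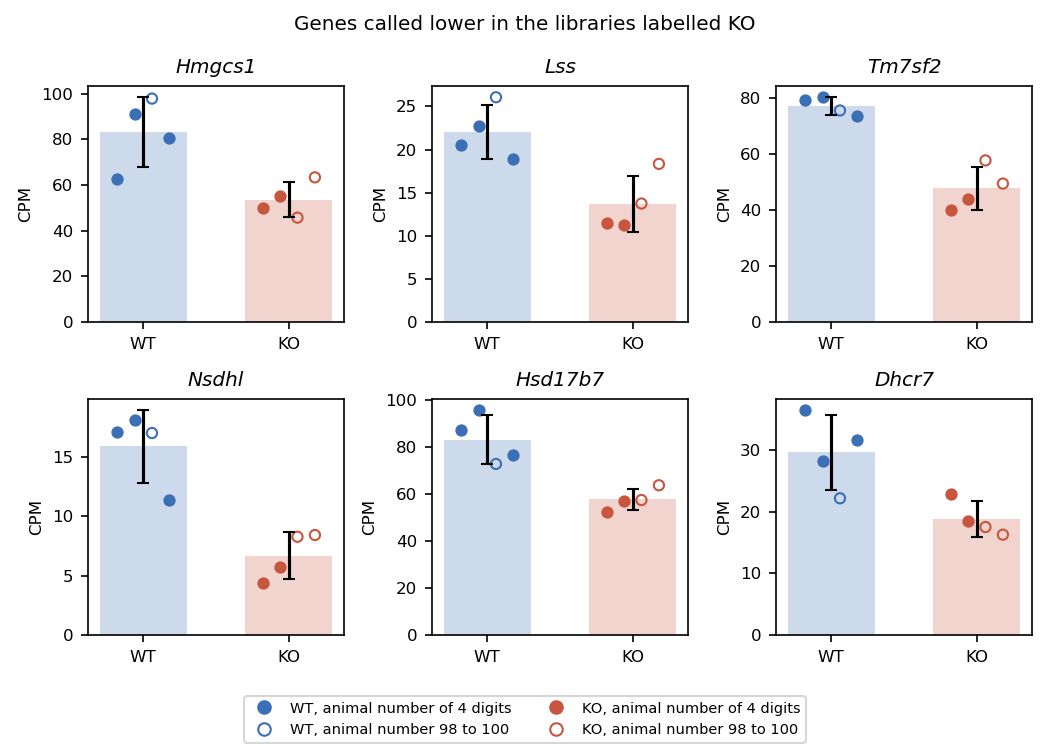
Level in CPM (y axis) of the 6 genes called lower, with bars for the mean of 4 libraries, error bars of 1 SD, and 1 point per library, open for animals 98 to 100 and filled for numbers of 4 digits. The points of Tm7sf2, Nsdhl, Hsd17b7 and Lss do not overlap between WT and KO, and those of Hmgcs1 and Dhcr7 do.

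Cyp51, the demethylase that acts on lanosterol, had the largest fold change among the uncalled members whose groups did not overlap. It was at 26.9, 24.9, 54.2 and 40.4 CPM in WT and 10.8, 16.1, 18.8 and 22.0 CPM in KO. All KO libraries lay below all WT libraries, with a log2 fold change of −1.11 (SE 0.31, edgeR adjusted p = 0.0980). Within each group the animals 98 to 100 were the higher ones, and with the kind of animal number as a covariate the log2 fold change was −1.27 and passed the test (edgeR adjusted p = 0.00222, where 2.1% of all genes were called lower). Sqle, the squalene epoxidase, was at 9.44, 6.66, 27.3 and 18.6 CPM in WT and 5.61, 4.20, 15.8 and 14.1 CPM in KO. Its spread within each group was wider than the step between them (log2 fold change −0.65, SE 0.62), and without WT replicate 3 the value was −0.21. With the kind of animal number as a covariate it was −1.08 and was not called (edgeR adjusted p = 0.106). Fdft1, the squalene synthase, was at 25.6 to 43.5 CPM in WT and 20.9 to 29.6 CPM in KO, with a log2 fold change of −0.20 (95% interval −0.57 to 0.17), or 0.0099 without WT replicate 3.

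Ebp, the isomerase that shifts the ring double bond, and Sc5d, the desaturase that follows, were the most abundant synthesis genes per length. Ebp was at 147 to 173 CPM in WT and 144 to 162 CPM in KO, with a log2 fold change of −0.09 and a 95% interval from −0.28 to 0.11. Sc5d was at 214 to 310.4 CPM in WT and 238 to 299 CPM in KO, with 0.12 and an interval from −0.16 to 0.40, or 0.26 without WT replicate 3. Levels of the synthesis genes in WT, in CPM per kilobase of exon, ran from 105 for Sc5d and 69.6 for Ebp through 25.7 for Hmgcs1 and 22.1 for Tm7sf2 to 2.05 for Lss and 0.321 for Idi1. 

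Among the sensing genes none was called. Srebf2 was at 35.5, 38.0, 66.4 and 52.3 CPM in WT and 39.2, 39.0, 42.9 and 49.9 CPM in KO, so the KO range lay inside the WT range (log2 fold change −0.17, SE 0.19, edgeR adjusted p = 0.696, and a log2 fold change of 0.031 without WT replicate 3). Scap was at 100.3, 111, 136 and 131 CPM in WT and 159.6, 134, 148 and 163 CPM in KO. Only WT replicate 3 lay above any KO library, and the log2 fold change of 0.34 did not pass (SE 0.11, edgeR adjusted p = 0.108). Without WT replicate 3 Scap was called higher, with 0.41 and an edgeR adjusted p of 0.0321.

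Insig1 and Insig2 both differed with animal number. A genotype difference was called for Insig1 only in the fits that allowed for that number, and for Insig2 in no fit. Insig1 was at 52.0, 61.2, 88.2 and 49.9 CPM in WT and 25.6, 23.7, 48.2 and 65.5 CPM in KO. The animals 98 to 100 were the high libraries of each genotype, and the KO libraries were low within each kind of animal number. Over 8 libraries the log2 fold change was −0.63 and was not called (SE 0.38, edgeR adjusted p = 0.462), and without WT replicate 3 it was −0.41. With the kind of number as a covariate it was −0.96 (edgeR adjusted p = 0.000891), and among the animals with numbers of 4 digits alone −1.14 (edgeR adjusted p = 0.000176). In that last fit 7 members were called lower, where 1.05% of all genes were.

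Insig2 was the most abundant of the 30 genes per length, at 228 CPM per kilobase in WT. It was at 895, 748, 383 and 1135 CPM in WT and 610.0, 711, 376 and 314 CPM in KO. The 3 animals 98 to 100 lay between 314 and 383 CPM and the other 5 between 610.0 and 1135 CPM, without overlap. Within each kind of number the KO libraries lay below the WT libraries. Over 8 libraries genotype gave a log2 fold change of −0.65 that was not called (SE 0.39, edgeR adjusted p = 0.451). With the kind of number as a covariate it was −0.37 and was not called either (edgeR adjusted p = 0.142). Per kilobase, Insig2 stood at 3.87 to 6.94 times Insig1 in the animals 98 to 100 and at 10.9 to 26.6 times in the others.

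**Figure D3:**
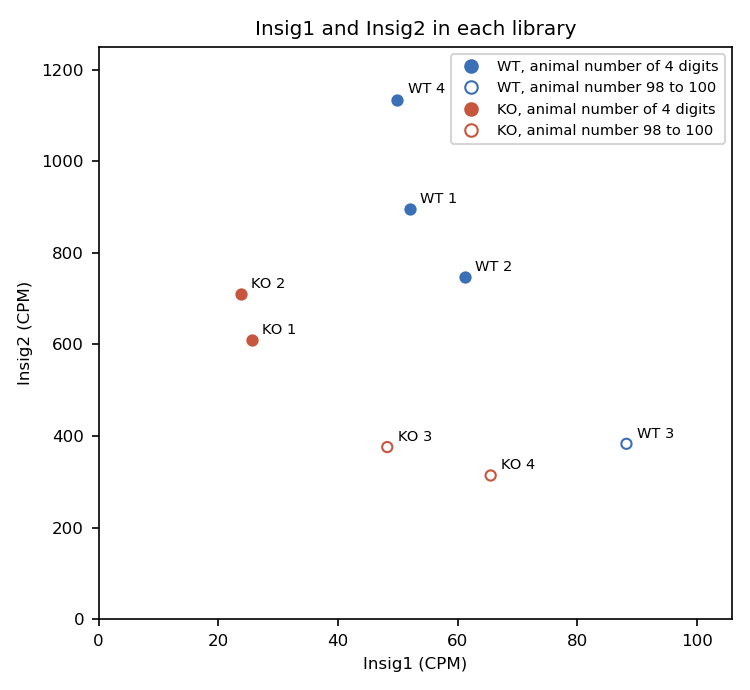
Insig1 (x axis) against Insig2 (y axis), both in CPM, with 1 point per library and the replicate beside it. The 3 animals 98 to 100 (open points) lie at 314 to 383 CPM of Insig2, below the other 5, and within each kind of animal number the KO points lie left of the WT points.

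Because members split by animal number, the number term of the fit that also holds genotype was tested, a comparison added after the values had been seen. In all, 4 members were higher in the animals 98 to 100, namely Stard4, Insig1, Acat2 and Sc5d, and 1 was lower, Insig2 (edgeR adjusted p from 0.000550 to 0.0455). Among all genes tested 1.43% were higher and 0.976% lower. The 2 kinds of animal did not overlap for Stard4, Acat2 and Sc5d, all higher in animals 98 to 100, or for Insig2, beside 5.56% of all genes that did not overlap and were higher and 5.52% that were lower. Stard4, a carrier that moves sterol between membranes, was at 34.5, 39.3, 107 and 43.1 CPM in WT and 39.1, 33.7, 61.6 and 65.8 CPM in KO. Its 3 high libraries were the animals 98 to 100, with a log2 difference of 1.10 for the number term (SE 0.12, edgeR adjusted p = 0.000550) and, over all 8 libraries, −0.16 for genotype (SE 0.44, edgeR adjusted p = 0.900). Without WT replicate 3, when all animals 98 to 100 left are KO, the genotype value of Stard4 was 0.36. With the kind of number as a covariate it was −0.34 and was not called (edgeR adjusted p = 0.141). The differences in log2 CPM were −0.10 among numbers of 4 digits and −0.74 among animals 98 to 100. The number term was 0.99 for Insig1 and −1.08 for Insig2 (SE 0.13 and 0.14, edgeR adjusted p = 0.00168 and 0.00145), and 1.45 for Sqle, which was not called (SE 0.31, edgeR adjusted p = 0.0654). With each library left out in turn, Stard4, Insig1 and Insig2 were called in all 8 fits. The call of Acat2 was lost in all 8, and that of Sc5d in 7, all but the fit without WT replicate 4. Of the 20 synthesis genes, 15 had a number term above 0, with a median of 0.40, beside 0.0037 over all genes tested.

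WT replicate 3 was the highest WT library for 12 of the 20 synthesis genes and KO replicate 4 the highest KO library for 11. Over all genes tested these libraries were the highest of their group for 29.5% and 26.0%. The differences between genotypes were also read within each kind of number. Among animals 98 to 100 the 1 WT library is WT replicate 3, so a high value there lowers the difference. Of the 30 members, 24 were lower in KO within both kinds and 3 were higher within both (Scap, Mylip and Soat2). The other 3 had opposite signs (Ggps1, Lbr and Sc5d). Mylip was higher by only 0.0058 among numbers of 4 digits, and the edgeR fit of those animals gave −0.032. The share of all genes lower within both kinds is not given, so whether 24 of 30 stands out is not known. The median log2 CPM difference was −0.46 among numbers of 4 digits and −0.45 among animals 98 to 100. Nsdhl had −1.59 and −1.02, Cyp51 −1.18 and −1.41, Tm7sf2 −0.89 and −0.50, and Hsd17b7 −0.65 and −0.27. In the fit with a term for genotype by number, no member was called (smallest adjusted p 0.521), where 0.0205% of all genes were.

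**Figure D4:**
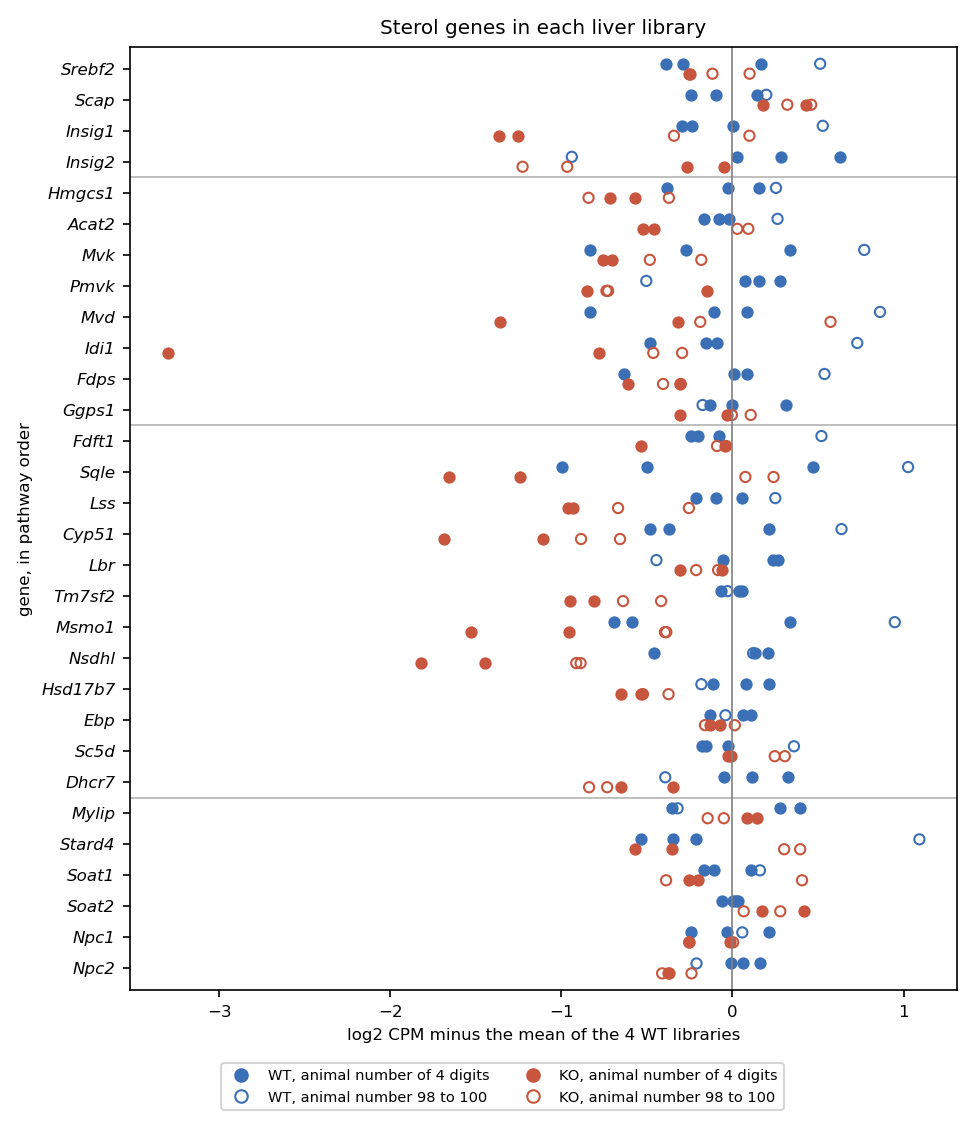
Log2 CPM of each gene in each library minus the mean of the 4 WT libraries (x axis), with genes in pathway order (y axis) and open points for animals 98 to 100. Open blue points (WT replicate 3) lie at the right end for 12 of the 20 synthesis genes among WT libraries, and the KO points of Tm7sf2, Nsdhl, Cyp51, Lss and Hsd17b7 all lie left of the WT points.

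**Figure D5:**
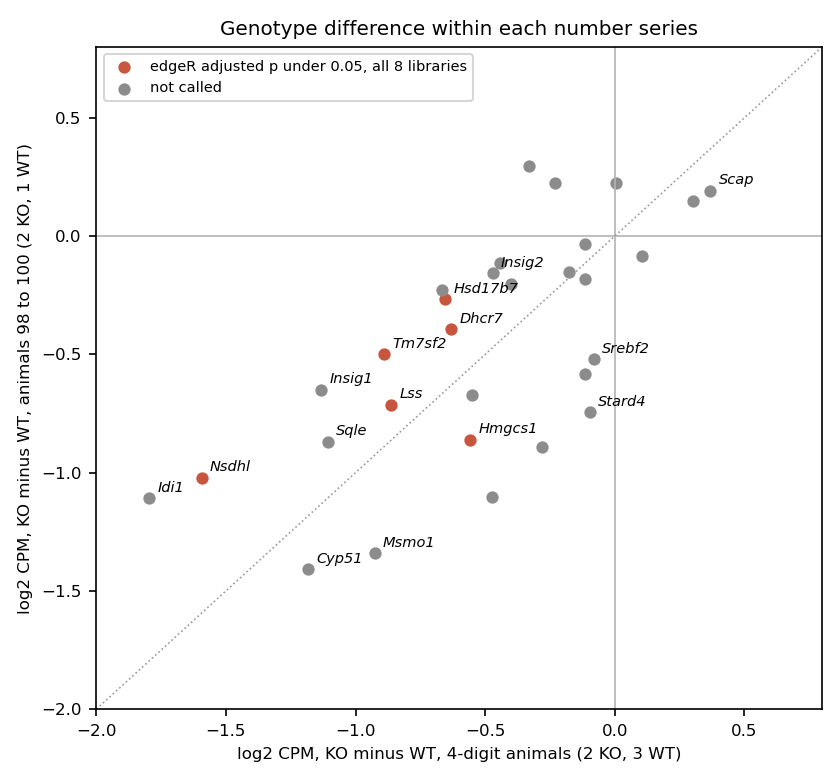
Difference in mean log2 CPM, KO minus WT, among animals with numbers of 4 digits (x axis, 2 KO and 3 WT libraries) and among animals 98 to 100 (y axis, 2 KO libraries and 1 WT library), 1 point per gene. Of the 30 genes 24 lie below 0 on both axes, including all 6 called genes.

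Genes of uptake, transport and storage had log2 fold changes between −0.35 and 0.24, and none was called. Npc2, which hands cholesterol to NPC1 inside lysosomes, was at 85.9, 80.3, 66.5 and 76.4 CPM in WT and 59.2, 59.5, 65.1 and 57.8 CPM in KO. The groups did not overlap, and the log2 fold change of −0.35 fell just short of the threshold (SE 0.09, edgeR adjusted p = 0.0523). Without WT replicate 3 it passed, with −0.42 and an edgeR adjusted p of 0.00979. Soat2, the acyltransferase that esterifies cholesterol in hepatocytes, was at 42.2, 41.5, 42.0 and 39.7 CPM in WT and 55.2, 46.6, 43.2 and 50.2 CPM in KO. It was the 1 member whose KO libraries all lay above the WT libraries, with a log2 fold change of 0.24 that was not called (SE 0.09, edgeR adjusted p = 0.184). Groups that did not overlap were seen for 6 members lower and 1 higher in KO, beside 5.01% and 6.19% of all genes tested.

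Npc1, the lysosomal membrane protein that exports cholesterol, was at 163 to 224 CPM in WT and 162 to 194 CPM in KO. Mylip encodes the ubiquitin ligase that removes lipoprotein receptors, and was at 19.2 to 32.3 CPM in WT and 22.2 to 27.1 CPM in KO. Soat1, the acyltransferase of most other cells, was at 7.87 to 9.88 CPM in WT and 6.73 to 11.7 CPM in KO. Their log2 fold changes of −0.13, −0.03 and −0.09 had 95% intervals from −0.37 to 0.11, from −0.38 to 0.32 and from −0.47 to 0.30. Without WT replicate 3, Mylip had −0.13 and Soat1 −0.029. Per kilobase, Soat2 stood above Soat1 in every library, at 18.7 to 22.7 times in WT and 16.3 to 32.9 times in KO.

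Around the 30 genes, 63 others of sterol biology were listed by role, of which 62 were tested, 2 were called lower and 0 higher by edgeR, with a median log2 fold change of −0.017. DESeq2 called 7 lower and 2 higher, and at an unadjusted p under 0.05 there were 11 and 3, beside the 8.84% and 9.2% of all genes. Acss2, which makes acetyl-CoA from acetate, had a mean of 76.5 ± 9.41 CPM in WT and 54.3 ± 3.42 CPM in KO (SD, 4 libraries per group), and fell 1.41-fold (edgeR adjusted p = 0.0138). Nceh1, a hydrolase of cholesteryl esters, had 62.3 ± 12.1 CPM in WT and 40.2 ± 3.08 CPM in KO, and fell 1.55-fold (edgeR adjusted p = 0.0127). Neither gene had KO libraries above any WT library. Both calls were lost without WT replicate 2, that of Acss2 also without KO replicate 4, and that of Nceh1 also without KO replicate 3 and in the 5 animals of 4-digit number (edgeR adjusted p at most 0.0931). No gene was called among 16 of sterol sensing and protein degradation (median 0.031), 11 of the isoprenoid branches (0.065) or 8 of the liver X receptor and its efflux targets (−0.073). Counts at an unadjusted p under 0.05 were 2 lower and 0 higher, 1 and 1, and 1 and 0. None of 18 clock genes or 16 genes of the response to fasting and feeding was called, with 3 lower and 0 higher at an unadjusted p under 0.05 in each list, again beside 8.84% and 9.2% of all genes, and medians of −0.26 and −0.18.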

How the data were processed

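Liver RNA of 4 HuR WT and 4 HuR KO mice was sequenced, 1 library per mouse. Values are raw counts of reads in each gene, as deposited, made by the authors with featureCounts 1.5.1 from GSNAP alignments to mm10 (GRCm38), per the submitters' processing notes. Per the file headers, Ensembl 81 genes were counted with strand setting 2 and a minimum mapping quality of 1, and reads with several positions or genes were left out. Symbols were matched for 45143 of 45706 genes, and 92 ERCC spike-in entries, at 0 counts throughout, were not used. Libraries held 18649618 to 31249286 counts.

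Genes were kept by filterByExpr (minimum count 10), and libraries were scaled by TMM and compared by the quasi-likelihood test of edgeR 4.0.16 (R 4.3.3) over all 14645 genes, with Benjamini-Hochberg adjustment and a threshold of 0.05. Log2 CPM used a prior count of 2. The step was tested on simulated data. CPM per kilobase divides by exon length. Alternatives were RLE scaling, no filter and a stricter filter, DESeq2 1.42.0, limma-voom (limma 3.58.1), a replicate block, the kind of animal number, the 4-digit animals alone, and each library left out. The comparison by animal number was added after values were seen. All 30 members were to be named, with other listed genes only where called. The members and lists were chosen with earlier results of these data known. No gene of a near-identical family was resolved beyond the authors' counting, and protein sequences were not used here.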

Additional observations from a re-analysis of the deposited data

Results flagged for a closer look

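Each of the 30 genes was checked in both groups of 4 libraries, 60 sets in all, for a single library far from the other 3, and 3 sets held one. By chance about 1 in 20 sets would. Idi1, the isopentenyl diphosphate isomerase, was at 0.0387 CPM (1 read) in KO replicate 1, where the other KO libraries lay between 0.589 and 0.855 CPM. Fdft1, the squalene synthase, was at 20.9 CPM in KO replicate 2, where the other KO libraries lay between 28.5 and 29.6 CPM. Nsdhl was at 11.4 CPM in WT replicate 4, where the other WT libraries lay between 17.0 and 18.1 CPM, and the KO libraries were all lower still.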

How the results depend on the processing

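Over single members, 435 values kept direction and side of the threshold under the alternatives, 15 lost the call, 17 gained it and 12 turned sign. Mylip turned to 0.057 with animal number as a covariate and 0.0034 with a replicate block. With single libraries left out, the ranges that crossed 0 were −0.30 to 0.031 for Srebf2, −0.69 to 0.078 for Mvd, −0.13 to 0.046 for Ggps1, −0.28 to 0.0099 for Fdft1, −0.14 to 0.11 for Mylip, −0.34 to 0.36 for Stard4 and −0.29 to 0.0062 for Soat1. In each case the cause was not tested.

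Genes called lower over the whole table were 328 with no filter (which tests more genes), 495 by DESeq2, 308 with animal number as a covariate and 71 to 534 with single libraries left out. Genes higher were 613 by DESeq2, 215 in the 4-digit animals alone and 151 to 710 with single libraries left out. Members lower were 3 to 8 and members higher 0 to 1 with single libraries left out. Companion genes lower were 6 with no filter, 7 by DESeq2, 5 with animal number as a covariate and 0 to 6 with single libraries left out, and companion genes higher were 2, 2 by the first pair of these and 0 to 4 by the last.

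For animals 98 to 100 against the others, genes lower were 352 with no filter, 271 by DESeq2 and 25 to 149 with single libraries left out, and genes higher 546, 398 and 31 to 250. By limma-voom 155 genes were lower and 255 higher. Members lower were 2 with no filter, and members higher 12 with no filter, 8 by DESeq2, 7 by limma-voom and 2 to 7 with single libraries left out.

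Over all genes tested, deviations of same-numbered replicates from their group means had correlations of 0.0255, 0.0251, 0.122 and −0.147. With 4 libraries per group these values cannot show whether the numbers pair the samples. With a replicate block 9 members were lower (Cyp51, Msmo1 and Sqle added) and 4 companion genes, with 211 genes lower and 353 higher over the table. Idi1 had too few counts for the stricter filter and has no value there. Depth limits Idi1, Mvd and Fdps, whose counts were as low as 1, 23 and 27.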
